A study of Mus musculus with 2 samples.

Results

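The unconventional myosins of the hair bundle, Myo15, Myo7a, Myo6, Myo3a and Myo3b, were described from the gene annotation that the authors deposited with a single-cell RNA-seq series of the mouse cochlea. All rows whose gene name matched one of these 5 symbols were taken, which gave 5 of 27998 mouse genes and 39 transcripts. The series holds 2 libraries from cochleae at postnatal day 8, 1 made after a virus carrying GFP as the control and 1 after a virus carrying Ikzf2, both packaged in Anc80, an engineered adeno-associated virus. Every animal in both groups carried Myo15-Cre, which drives Cre recombinase in hair cells, and Ai14, a reporter that turns on the red protein tdTomato where Cre has acted. Cells with tdTomato were enriched by flow sorting and captured with a droplet kit that reads the 3' ends of transcripts. The sources used here do not say how the Myo15-Cre allele was built or how many animals went into each library. The annotation holds 0 columns of per-sample values, so the levels of the 5 myosins in the GFP and Ikzf2 libraries, and the hair cell markers of the sorted cells, were not analysed here. All values below are properties of gene models on build GRCm38. They have no sampling error, and no test was run on them.

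Hair bundles are rows of actin-filled stereocilia on the apical surface of hair cells, and unconventional myosins carry cargo along their actin or anchor their membrane and links. Each of these myosins has a motor domain that binds actin and splits ATP, followed by a neck that binds light chains and a tail that binds cargo. Myosin XVa, encoded by Myo15, brings elongation factors such as whirlin and Eps8 to stereocilia tips. Myosin VIIa, encoded by Myo7a, acts at the upper end of the tip links that gate mechanotransduction. Myosin VI, encoded by Myo6, is the one that walks toward the minus end of actin and is needed at the stereocilia base. Myosins IIIa and IIIb, encoded by Myo3a and Myo3b, carry a protein kinase domain ahead of the motor and bring espin proteins to the tips.

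The P-loop, the part of the motor that holds the phosphates of ATP, was used as a landmark that all 5 genes share. The 24 bases that encode it are shown because they give a fixed point in the motor from which each start codon can be measured. They are printed from 5′ to 3′ on the coding strand of GRCm38, and capitals mark the codon at which the 5 genes hold more than one amino acid.
Myo15, chr11:60483717-60483740, + strand: ggggagagtggcTCTggaaagact
Myo7a, chr7:98097710-98097733, − strand: ggggagtcgggaGCTggcaagaca
Myo6, chr9:80242224-80242247, + strand: ggagaatcaggaGCTggcaaaaca
Myo3a, chr2:22333643-22333666, + strand: ggagaaagtggtGCTggcaagaca
Myo3b, chr2:70237832-70237855, + strand: ggagaaagcggaTCGgggaagacg
The P-loop was found once in 17 of the 18 protein-coding transcripts that have both a start and a stop codon. It lay within a single exon in each of the 17. The exception was Myo3b-001, whose 188 codons end before the motor. The capital codon was GCT in Myo7a, Myo6 and Myo3a, TCT in Myo15 and TCG in Myo3b.

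The 5 genes differed far more in span than in exon number. Myo15, the gene whose name the Cre driver carries (ENSMUSG00000042678, chr11:60469339-60528369, + strand), spanned 59031 bases and had 66 exons. Myo7a (ENSMUSG00000030761, chr7:98051060-98119524, − strand) spanned 68465 bases with 49 exons. Myo6 (ENSMUSG00000033577, chr9:80165031-80311729, + strand) spanned 146699 bases with 36 exons. The shortest gene therefore had the most exons. Myo3a (ENSMUSG00000025716, chr2:22227503-22618252, + strand) spanned 390750 bases with 34 exons. Myo3b (ENSMUSG00000042064, chr2:70039126-70429198, + strand) spanned 390073 bases with 35 exons. These 2 lay on the same chromosome and strand, their spans differed by 677 bases, and Myo3a was 6.62 times as long as Myo15. Exon numbers are those of the isoform with the longest coding sequence. Over the 21990 protein-coding genes of the annotation the median was 16537 bases of span and 7 exons. Each of the 5 had more exons than at least 97.4% of these genes, and 71 genes had more exons than Myo15.

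**Figure D1:**
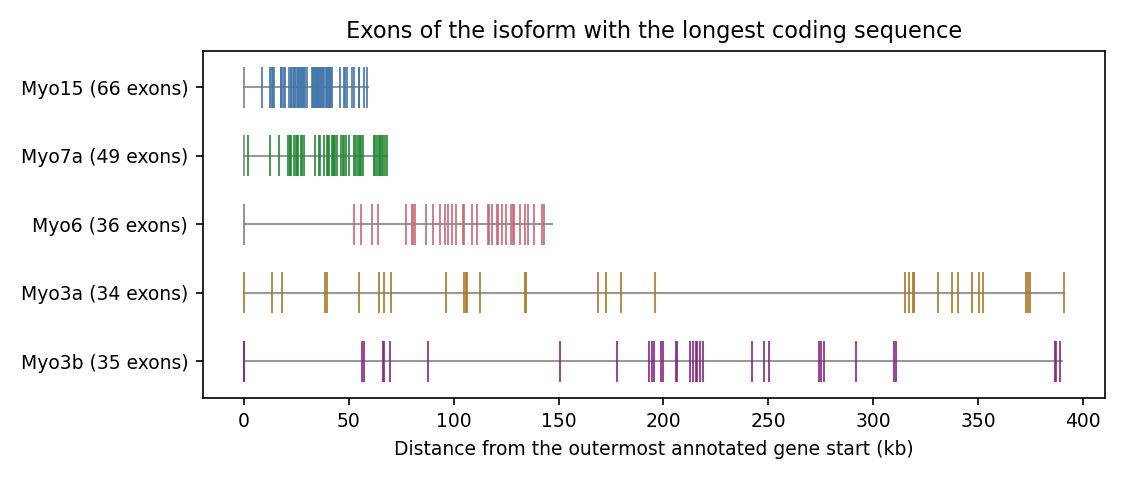
Exons (vertical bars) of the isoform with the longest coding sequence of each gene, against the distance in kb from the outermost annotated start of that gene. The 66 exons of Myo15 fall within 59031 bases, while the 34 of Myo3a are spread over 390750 bases with a gap of 119044 bases after exon 20.

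Introns made up most of each span. Exons made up 19.9% of the span of Myo15 and 10.96% of that of Myo7a, against a median of 14.5% over all protein-coding genes. They made up 2.82% in Myo6, 1.30% in Myo3a and 1.60% in Myo3b, and 21348 of the 21990 genes had a larger exonic share than Myo3a. The longest intron was intron 1 of 6788 bases in Myo15 and intron 2 of 10610 bases in Myo7a. In Myo6 it was intron 1, of 52386 bases, which is 35.7% of that gene's span and lies ahead of the coding sequence. In Myo3a it was intron 20 of 119044 bases, and in Myo3b intron 32 of 75577 bases. Introns over 10000 bases numbered 0 in Myo15, 1 in Myo7a, 2 in Myo6, 11 in Myo3a and 10 in Myo3b. The Myo6 share rests on an isoform with a 226-base 3' UTR, and Myo6-001 has 7871 exonic bases against 4139 in the isoform used.

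Coding length followed another order than span. The longest coding sequence, stop codon included, had 10536 bases (3511 codons for amino acids) in Myo15 and 6648 bases (2215 codons) in Myo7a. It had 4866 bases (1621 codons) in Myo3a, 4002 bases (1333 codons) in Myo3b and 3885 bases (1294 codons) in Myo6. Myo15 was thus the shortest gene with the longest coding sequence, 2.71 times that of Myo6. The median over all protein-coding genes was 1170 coding bases, and each of the 5 exceeded at least 94.1% of genes.

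Beside 19 other unconventional myosins, Myo15 and Myo7a had the most exons. In that list the fewest exons were 22, in Myo1d, a short-tailed class I myosin, and in Myo1g. The most were 47, in Myo7b, the gut and kidney relative of Myo7a, and the median was 35. Coding length ran from 2892 bases in Myo19, a mitochondrial myosin, to 7896 bases in Myo9a. The 14 conventional heavy chains, which form the filaments of muscle and non-muscle myosin II, were uniform. Their exon number ran from 39 in Myh4 and Myh6 to 42 in Myh7b and Myh11. Their coding length ran from 5778 bases in Myh15 to 6102 in Myh14. Among 18 hair bundle partners of these myosins, Cdh23, a tip-link cadherin, had 71 exons and 10065 coding bases, close to the values of Myo15. The smallest in exon number was Ush1g with 3, a scaffold bound by myosin VIIa.

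**Figure D2:**
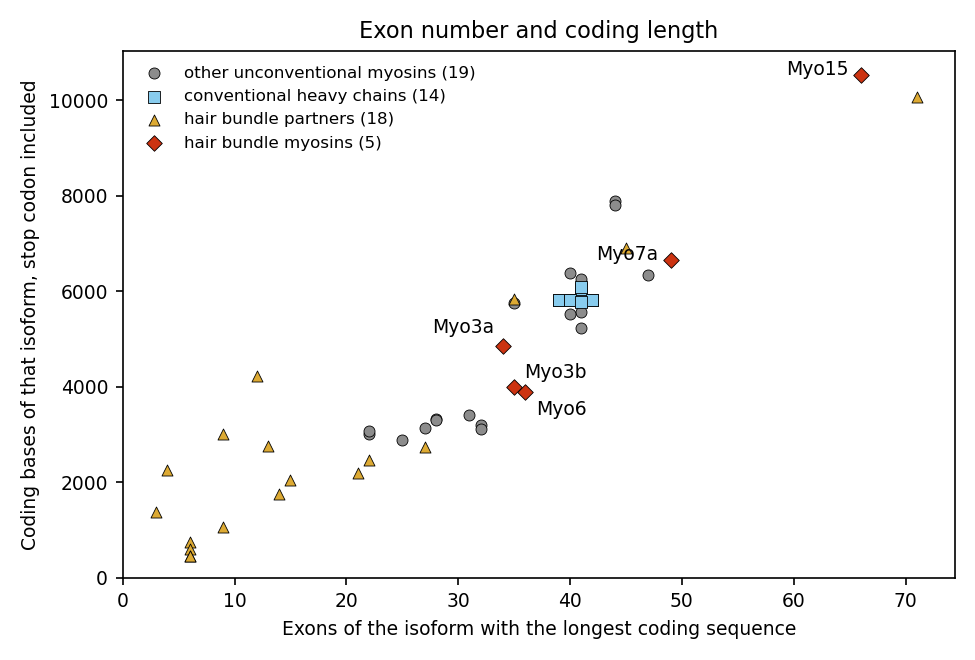
Coding bases (stop codon included) against the number of exons of the isoform with the longest coding sequence, for the 5 hair bundle myosins (diamonds), 19 other unconventional myosins, 14 conventional heavy chains and 18 bundle partners. Myo15 sits at 66 exons and 10536 coding bases, above every other myosin shown in both, and Myo6, Myo3a and Myo3b lie together at 34 to 36 exons.

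The 39 transcripts comprised 22 protein-coding ones, 9 processed transcripts, 7 with a retained intron and 1 marked for nonsense-mediated decay. Myo7a had 13 transcripts, Myo6 had 12, Myo3a 6, Myo15 5 and Myo3b 3. Of the 22 protein-coding transcripts, 4 lacked an annotated start or stop codon: Myo15-002, Myo7a-006, Myo3a-001 and Myo3a-002. Ensembl's transcript support level, which is 1 where every splice junction is backed by at least 1 sound mRNA and 5 where none backs the whole structure, was 1 for 4 of the 22, 3 for 1, 5 for 16 and not assigned for 1. The 4 at level 1 were Myo15-002, Myo7a-002, Myo7a-003 and Myo3b-001. The isoform with the longest coding sequence was at level 5 in all 5 genes.

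Start codons differed among isoforms in 4 of the 5 genes, Myo6 being the exception. With complete transcripts only, Myo3a also had 1 start codon. Among the 5611 genes of the annotation with 3 to 6 protein-coding transcripts, the range of the 5 members, 39.5% had at least 2 annotated start codons. There were 10 distinct start codons, 2 in Myo15, 2 in Myo7a, 1 in Myo6, 2 in Myo3a and 3 in Myo3b. Each is shown with the 9 bases before it and the 15 after it, as the sequence in which each annotated start stands. Every downstream start codon also lies in the coding sequence of the longest isoform, so these bases do not by themselves separate the isoforms. Capitals mark the start codon, and positions give the first and last base of the start codon on GRCm38.
Myo15 (Myo15-001, Myo15-005), chr11:60476416-60476418, + strand: agggccaccATGgcggatgaggagaag
Myo15 (Myo15-004), chr11:60481656-60481658, + strand: aggacccagATGcactccatacgcaac
Myo7a (Myo7a-001, Myo7a-004, Myo7a-006), chr7:98117731-98117733, − strand: cgtagaagcATGgttattctgcagaag
Myo7a (Myo7a-002, Myo7a-003, Myo7a-013), chr7:98107088-98107090, − strand: tatgtatggATGgacctgaagtcaggc
Myo6 (Myo6-001, Myo6-002, Myo6-003, Myo6-004, Myo6-012, Myo6-014), chr9:80217641-80217643, + strand: tccttcaaaATGgaagatggaaagccc
Myo3a (Myo3a-201), chr2:22227636-22227638, + strand: ctggctcatATGcagatgacagaaacc
Myo3a (Myo3a-001), chr2:22241068-22241070, + strand: acctttgagATGcttccattaattgga
Myo3b (Myo3b-201), chr2:70039146-70039148, + strand: gcttgaacaATGgcagcagcctcggag
Myo3b (Myo3b-002), chr2:70095191-70095193, + strand: tataaccccATGatgcttggcctggaa
Myo3b (Myo3b-001), chr2:70096364-70096366, + strand: gtttaggatATGgatgaggagattgag
All 10 lay in the same reading frame of their gene, so a downstream start removes codons from the N terminus and leaves the rest of the protein as it was up to other isoform differences. A purine stood 3 bases before the start codon in 6 of 10, against 81.7% of 19167 distinct ATG start codons of protein-coding genes. Sequences for that comparison came from complete transcripts, of which 33868 of 39342 had a matching sequence. The 10 member starts include that of the incomplete Myo3a-001. The 4 without a purine there were the downstream starts of Myo15 and Myo7a, the outermost start of Myo3a and the start of Myo3b-002. How efficiently any of these starts is used was not tested.

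The upstream Myo15 start lay in exon 2, a coding exon of 3762 bases of which 3561 are coding, 33.8% of the longest coding sequence. It encodes the proline-rich N-terminal extension of the long myosin XVa isoform. Exon 2 was present in Myo15-001 and Myo15-005 and skipped in Myo15-004, whose start codon stands in the next exon, 5240 bases further along the chromosome. The start of Myo15-004 removes 1187 codons, and 111 residues then precede the P-loop in place of 1298. Complete Myo15 coding sequences had 10536, 10482 and 6921 bases, so the longest was 1.52 times the shortest. Of the 21990 genes, 158 had a larger coding exon than Myo15. All 3 complete isoforms shared one first base and one last base, so both start codons are annotated downstream of the same first base.

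The Myo7a starts did not share a first base. Myo7a-001, Myo7a-004 and Myo7a-006 began within 31 bases of one another at the outermost start, while Myo7a-002 and Myo7a-003 began 10276 bases downstream and Myo7a-013 began 12377 bases downstream. The 3 downstream transcripts used the second start codon, 10643 bases from the first on the chromosome, which removes 11 codons. The P-loop was preceded by 157 residues in the longer form and by 146 residues in Myo7a-002 and Myo7a-013. Myo7a-003 had 152, since it also includes 6 codons of an extra exon described below. Both level 1 models of complete Myo7a isoforms carried the downstream start.

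Myo3a and Myo3b had alternative starts ahead of the motor. In Myo3a the second start belonged to the incomplete Myo3a-001 and removed 8 codons. In Myo3b, the start of Myo3b-002 removed 28 codons and left 423 residues ahead of the P-loop against 451 in Myo3b-201, while Myo3a-201 had 438. The start of Myo3b-001 lay 79 codons into the longest form. That transcript shared 560 coding bases with the longest form and then ended on a stop codon of its own at 567 coding bases. It is therefore annotated as a protein that stops ahead of the motor. All 6 Myo6 isoforms used 1 start codon with 150 residues ahead of the P-loop, though 3 of them began within 196 bases of the outermost first base and the other 3 began 52580 to 52606 bases further downstream.

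Over the 22 protein-coding transcripts there were 19 distinct first bases, or 14 when first bases within 50 bases were merged. After merging, all 5 genes had at least 2, as did 86.7% of genes with 3 to 6 protein-coding transcripts. Counting complete transcripts only, Myo15 and Myo3a had 1 first base each, so that 3 of the 5 genes had at least 2. RefSeq promoter windows, which reach from 250 bases before to 50 bases after a start on GRCm38.p6, matched all 5 genes and gave 6 windows. Myo7a had 2 of them, and their starts coincided with the first bases of Myo7a-006 and Myo7a-002. The others coincided with the outermost first base of their gene, except that of Myo6, which lay 3 bases away. The Myo15 window held 1 CG dinucleotide at a GC content of 51%, against a median of 7 over 32851 windows. The Myo6 window held 22 at 68.3%, that of Myo3a 16, that of Myo3b 7 and each Myo7a window 6. In this count of CG dinucleotides the driver gene was the lowest of the 5.

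In all, 8 exons could be included or skipped without shifting the reading frame, 3 in Myo15, 1 in Myo7a, 4 in Myo6 and none in Myo3a or Myo3b. An exon was counted when it belonged to a run of 1 or more coding exons that lay wholly inside an intron of another protein-coding isoform. The summed coding length of the run had to be divisible by 3. Each of the 8 also has a coding length divisible by 3 by itself, which the rule does not require in other genes. At least 1 such exon was present in 3 of 5 members and in 45.8% of the genes with 3 to 6 protein-coding transcripts. Of the 8, 1 is Myo15 exon 2, which holds a start codon and is only partly coding. It lies ahead of the coding sequence of Myo15-004, the isoform that skips it, and is treated as an alternative start. The other 7 met a stricter rule and are called cassette exons. They are fully coding, lie within the coding span of isoforms that skip them, and have both flanking splice sites in common with those isoforms. In addition, 2 shifted splice sites kept the frame, both in Myo7a. Such sites occurred in 1 of 5 members and in 23.9% of the genes in that range.

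The 7 cassette exons and the 2 shifted sites are printed below, since they are the optional in-frame coding sequence of Myo15, Myo7a and Myo6 apart from exon 2 of Myo15. Capitals mark the optional bases and the lower case letters are the 15 coding bases on either side in the transcript that includes them, with positions of the optional bases on GRCm38.
Myo15 exon 8 of Myo15-001, 6 bases, chr11:60486893-60486898, + strand: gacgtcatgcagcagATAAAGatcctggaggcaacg
Myo15 exon 26 of Myo15-001, 54 bases, chr11:60497523-60497576, + strand: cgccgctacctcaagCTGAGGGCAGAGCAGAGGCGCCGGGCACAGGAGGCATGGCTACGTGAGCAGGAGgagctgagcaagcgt
Myo7a exon 4 of Myo7a-003, 18 bases, chr7:98099474-98099491, − strand: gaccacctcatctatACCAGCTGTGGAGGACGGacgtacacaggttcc
Myo7a shifted end of exon 46 of Myo7a-001, 6 bases, chr7:98053806-98053811, − strand: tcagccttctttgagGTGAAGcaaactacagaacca
Myo7a shifted start of exon 35 of Myo7a-001, 114 bases, chr7:98065782-98065895, − strand: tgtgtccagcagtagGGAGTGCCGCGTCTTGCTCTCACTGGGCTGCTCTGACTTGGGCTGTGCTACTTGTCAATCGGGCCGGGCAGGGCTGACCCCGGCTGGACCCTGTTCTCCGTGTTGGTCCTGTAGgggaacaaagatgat
Myo6 exon 29 of Myo6-012, 27 bases, chr9:80293527-80293553, + strand: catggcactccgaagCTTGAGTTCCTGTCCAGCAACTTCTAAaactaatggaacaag
Myo6 exon 30 of Myo6-012, 30 bases, chr9:80293945-80293974, + strand: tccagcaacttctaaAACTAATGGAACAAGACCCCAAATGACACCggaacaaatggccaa
Myo6 exon 31 of Myo6-012, 39 bases, chr9:80296643-80296681, + strand: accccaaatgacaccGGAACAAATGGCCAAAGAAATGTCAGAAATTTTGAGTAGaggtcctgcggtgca
Myo6 exon 34 of Myo6-012, 27 bases, chr9:80303273-80303299, + strand: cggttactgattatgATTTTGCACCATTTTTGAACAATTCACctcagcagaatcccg
The coding bases of 5 of the 10 optional elements begin at a codon boundary. These are the Myo15 elements, the 18-base exon and the 6-base site of Myo7a. For exon 2 of Myo15 this holds only because its coding part begins with the start codon, after untranslated bases of the same exon.

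Both optional exons of Myo15 inside the protein lay after the P-loop. The 6-base exon 8 adds 2 codons as residues 1329 and 1330, where the P-loop begins at residue 1299. It was present in all 3 complete isoforms and skipped only in the incomplete Myo15-002, which is the level 1 model. The 54-base exon 26 adds 18 codons as residues 1955 to 1972 of Myo15-001 and was skipped in Myo15-002, Myo15-004 and Myo15-005. It is rich in G and C (68.5%), whereas exon 8 has 16.7%. Myo15-001 and Myo15-005 differ by exon 26 alone, 10536 against 10482 coding bases.

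In Myo7a the 18-base exon 4 of Myo7a-003, also in the partial Myo7a-006, adds 6 codons as residues 85 to 90, ahead of the P-loop. The other 4 protein-coding isoforms skip it. Exon 35 of Myo7a-001 begins 114 bases (38 codons) earlier than in Myo7a-002, Myo7a-003, Myo7a-004 and Myo7a-013, through an acceptor site further upstream that only Myo7a-001 uses. Those codons fall at residues 1523 to 1561 of 2215, in the tail. Exon 46 ends 6 bases (2 codons) earlier in Myo7a-013 than in the other 4 complete isoforms. The 5 complete coding sequences ran from 6495 to 6648 bases, a spread of 51 codons.

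In Myo6 the motor was the same in all isoforms and the 4 optional exons lay between 80.0% and 88.5% of the way along the coding sequence, in the tail. Exons 29, 30 and 31 of Myo6-012, with 27, 30 and 39 bases, follow one another, and the 27-base exon 34 stands apart. Tail inserts of myosin VI are known as the large and the small insert and bear on which partners it binds. Which annotated exon belongs to which insert was not tested. Myo6-004 included none of the 4 and had 3762 coding bases. Myo6-001 included exon 34 alone, Myo6-003 exon 31 alone, and Myo6-012 all 4. Myo6-002 lacked exon 30 only and Myo6-014 lacked exon 29 only. The 6 isoforms thus showed 6 different combinations of the 16 possible, and each coding length equalled 3762 bases plus the included exons, up to 3885. Exons 29 and 30 were never present without exon 31 in these 6 models.

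**Figure D3:**
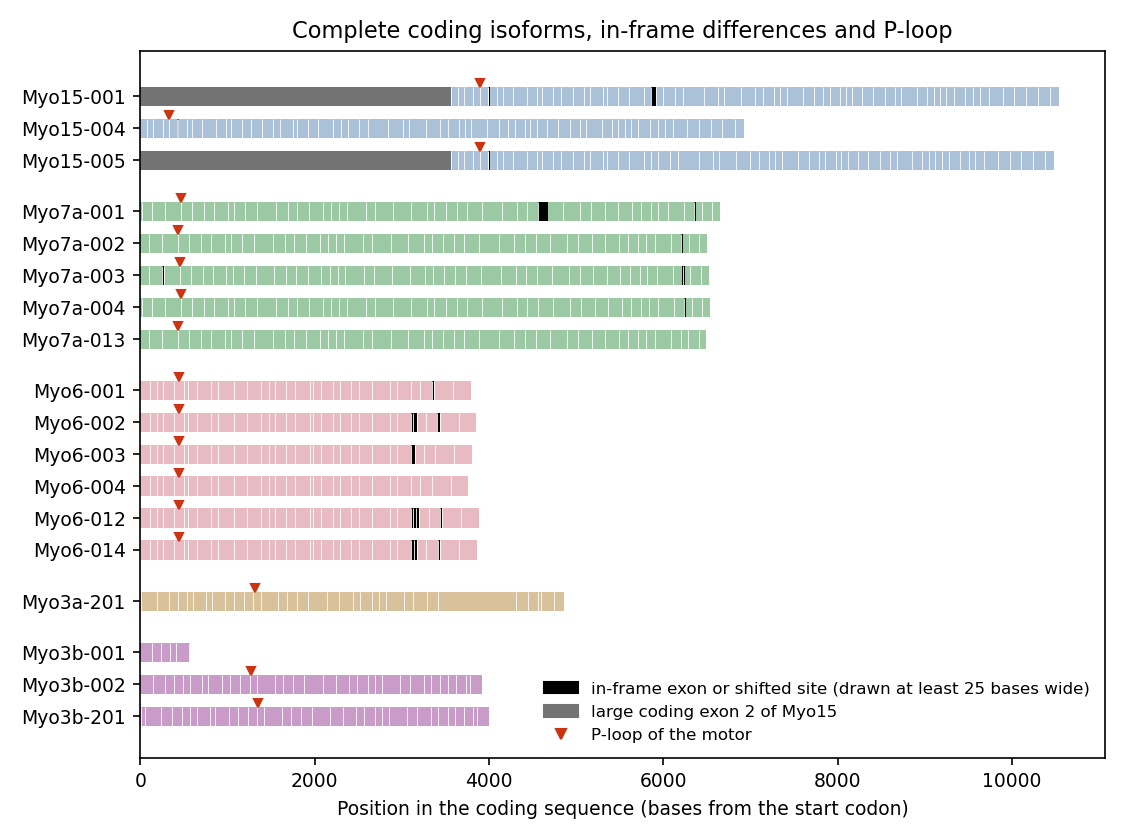
The 18 complete coding isoforms, drawn in coding bases from the start codon, with exon borders as white lines, optional in-frame elements in black (drawn at least 25 bases wide), Myo15 exon 2 in grey and the P-loop as a triangle. The P-loop of Myo15-004 stands near the start and that of Myo15-001 behind 1298 residues. The black elements of Myo6 lie in the tail, from 80.0% of the way along Myo6-012, and Myo3a and Myo3b have none.

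Very short exons were part of this variation. Inner coding exons of 30 bases or fewer numbered 5, namely the 6-base exon of Myo15, the 18-base exon of Myo7a and the 27-, 30- and 27-base exons of Myo6. The limit was set with these lengths known, the 30-base exon is just inside it, and the 39-base exon of Myo6 is just outside. At least 1 such exon was present in 3 of 5 members and in 10.7% of genes with 3 to 6 protein-coding transcripts. These comparison genes, here and above, were chosen by transcript number and not by exon number. The members had 34 to 66 exons, against a median of 7 over all protein-coding genes. Their longest coding isoforms together held 207 inner coding exons, among them these short exons except that of Myo7a. The part of exon number in the difference was not tested. Among genes with at least 2 protein-coding transcripts, at least 1 such exon was present in 3 of 14 other unconventional myosins, 10 of 10 conventional heavy chains and 4 of 12 bundle partners. Of 163797 distinct inner coding exons in the annotation, 2110 (1.29%) had at most 30 bases and 118 had at most 6. All 5 in the members are optional, since each is skipped in at least 1 protein-coding isoform.

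The share of inner coding exons whose length is divisible by 3, and which could therefore be skipped alone without a frame shift, was 72 of 207 (34.8%) over the 5 genes. Over all protein-coding genes it was 40.8%. Within the members it was 50% in Myo7a (23 of 46), 36.4% in Myo6 (12 of 33), 31.3% in Myo3a (10 of 32), 30.3% in Myo3b (10 of 33) and 26.98% in Myo15 (17 of 63). Myo7a, with the largest share, had 1 annotated optional exon, and Myo6, with 12 such exons, had 4. In the other lists the share was 44.1% in other unconventional myosins, 42.6% in conventional heavy chains and 44.1% in bundle partners.

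The lists also differed in how many genes had variation of this kind, counted over genes with at least 2 protein-coding transcripts. In-frame optional exons were annotated in 3 of 5 hair bundle myosins, 12 of 14 other unconventional myosins, 2 of 10 conventional heavy chains and 8 of 12 bundle partners. The counts per gene reached 20 in Myo18a, 9 in Myh14 and 51 in Pcdh15, the other tip-link cadherin, against 4 in Myo6. Under the stricter rule for cassette exons, they were 8 in Myo18a, 2 in Myh14 and 31 in Pcdh15, while Myo6 had 4. Myh14 thus moved from above Myo6 to below it. The numbers of genes with at least 1 were then 3 of 5, 10 of 14, 2 of 10 and 7 of 12. At least 2 start codons were annotated in 4 of 5 hair bundle myosins, 7 of 14 other unconventional myosins, 1 of 10 conventional heavy chains and 5 of 12 partners. Of the 4, Myo3a counts through the incomplete Myo3a-001 and had 1 start codon with complete transcripts only. The other lists were not recounted in that way. Counts of isoforms rise with how closely a gene has been annotated, and the part of that in these counts was not tested.

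Myo3a and Myo3b shared an exon layout that no other pair of the 5 did. Taking coding exons in order, 25 had the same length in both, of 34 in Myo3a and 35 in Myo3b, and the longest unbroken run had 8 exons. In the other 9 pairs of members 2 to 5 exons matched in this way, with no run above 1 exon. The 25 exons held 2972 bases, 61.1% of the Myo3a and 74.3% of the Myo3b coding sequence. Compared base by base without gaps, 64.0% of these bases were identical. Identity ran from 42.9% in the first exon, of 7 bases, to 79.8% in an exon of 89 bases. It exceeded 70% in 6 of the 25 exons and was below 60% in 10. The 89-base exon is coding exon 21 of Myo3a (chr2:22542415-22542503, + strand) and 22 of Myo3b (chr2:70256489-70256577, + strand). It is shown as the closest of the 25 same-length exons, with the 18 differing bases in capitals. Exons of unlike length were not compared.
Myo3a: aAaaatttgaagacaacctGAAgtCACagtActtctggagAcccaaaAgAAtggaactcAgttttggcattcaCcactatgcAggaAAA
Myo3b: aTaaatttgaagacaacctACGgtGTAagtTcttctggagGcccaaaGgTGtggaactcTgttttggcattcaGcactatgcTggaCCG
Beyond Myo3a coding exon 27 the match ended, apart from 1 exon of 107 bases. Myo3a has there a coding exon of 889 bases, exon 29, for which no Myo3b exon of that length exists, the longest in Myo3b having 211 bases. This exon lies in the tail. For comparison, Myo7a and Myo7b, both class VII myosins, had 36 exons of the same length in order with a longest run of 13, while Myo3a and Myo10 had 4. These last pairs were picked after the Myo3 match was seen.

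**Figure D4:**
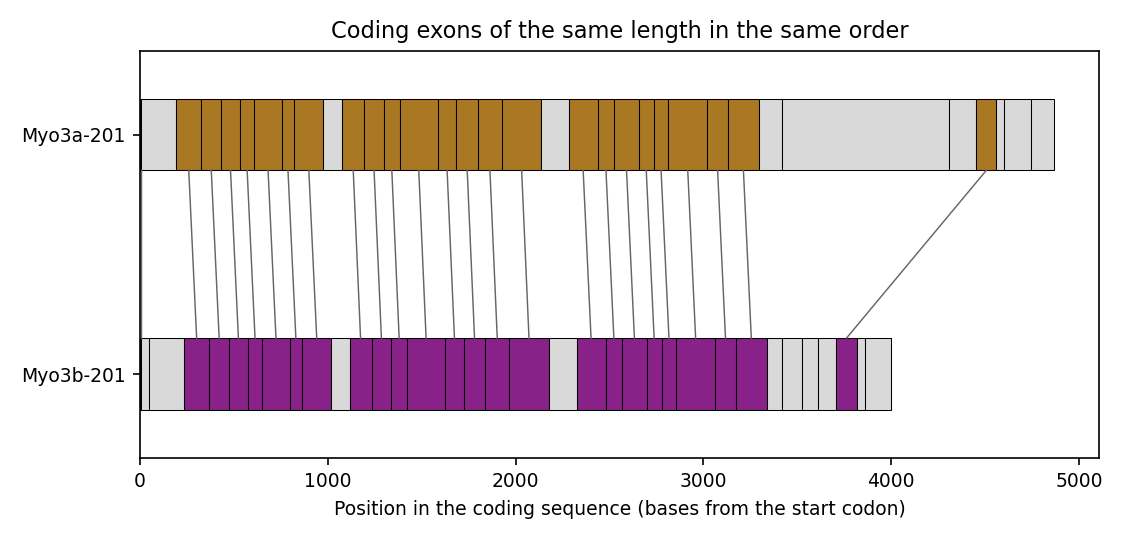
Coding exons of Myo3a-201 and Myo3b-201, drawn to scale in coding bases from the start codon. Lines join the 25 exons of the same length in the same order (coloured), and exons without a match are grey, among them the 889-base exon 29 of Myo3a.

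The ends of the transcripts matter for a kit that reads 3' ends. Over complete protein-coding isoforms, Myo15 and Myo3a each had 1 last base. Myo7a had 4 within 565 bases and Myo6 had 4 within 3679 bases. Myo3b had 3 over 245931 bases, since Myo3b-001 ends far ahead of the other isoforms. Of the 10 optional in-frame elements, 1 lay within the last 500 bases of a complete transcript that includes it. This was the 6-base site of Myo7a, 296 bases from the end of Myo7a-004, a model with a 2-base 3' UTR. Each of the other 9 lay 598 bases or more from the end of every complete transcript that includes it. With incomplete models counted, 2 of the 10 lay within the last 500 bases, since the 18-base exon of Myo7a stands 116 bases from the end of the partial Myo7a-006. Exon 2 of Myo15, by which its start codons differ, lay 7865 bases or more from the 3' end of the isoforms that include it.

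A single gene overlapped a member in the authors' annotation. Gm27227, an antisense gene of 2145 bases, lay inside Myo6 on the opposite strand and shared no exonic base with it. The GENCODE M21 annotation lists 5 more overlaps. These were 4 pseudogenes inside Myo3a (Gm13339, Gm13340, Gm13341 and Gm13342), with no exonic base in common, and Gm13631, a same-strand transcript at the start of Myo3b that shares 70 exonic bases with it. The nearest gene to the start of Myo15 was Drg2, which ends 584 bases upstream on the same strand.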

How the data were processed

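The series has 2 droplet 3' single-cell libraries, 1 per group, and the submitters' processing notes name Cell Ranger 2.0.2 without a role (the aligner: not given in the sources used here). What was analysed is the authors' deposited gene annotation, whose values are genome positions in bases. Per the file headers, it follows GRCm38.p4 with a gene build of 2016. It holds 0 columns of per-sample values, so depth and its precision concern no value here, and expression was not analysed here.

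Spans, exons, coding lengths (stop codon included), start codons and in-frame differences were computed from the models with Python 3.11.15, Biopython 1.88, NumPy 2.4.6 and Matplotlib 3.10.9. Exon number and coding length are those of the protein-coding transcript with the longest coding sequence. All 39 member transcripts had the same identifier, version and exons in GENCODE M21, whose transcript sequences were therefore used. Promoter windows came from RefSeq. The rules for in-frame exons, shifted sites and start codons were tested on simulated data and gave the right answer for 200 of 200 genes each.

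The members and lists were chosen with earlier results of these data known. The named genes were the 5 members, the genes with the largest and smallest value of each comparison list and any gene overlapping a member. Genes that tie for the smallest or largest exon number of a list are all named. Where several tie for the smallest number of start codons or in-frame exons, none is named. Outside that rule, Drg2 as the nearest gene to Myo15 and Myo7b and Myo10 as partners for exon layout were chosen after the values were seen. Several measures were chosen after the member models were seen. These are the microexon limit, the range of 3 to 6 transcripts for the comparison genes, the stricter rule for cassette exons, the bases around start codons, the exon length patterns, the promoter windows and the P-loop. A first, narrower P-loop pattern matched 3 of the 5 genes, and it was widened by one amino acid at one position because Myo15 and Myo3b had no match. The alternatives tried were M21 models, the longest exonic transcript, complete transcripts only, median coding length, merged first bases, all transcripts with coding sequence, the stricter rule for cassette exons and microexon limits of 27 and 51 bases.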

Additional observations from a re-analysis of the deposited data

How the results depend on the processing

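Gene models have no replicates, so the limits are those of the annotation: most models of the 5 genes carry the weakest support level, and a start or exon that is not annotated is not counted. Taking the transcript with the longest exonic length in place of the longest coding sequence moved the median exon number from 36 to 35, through Myo6. The median coding length moved from 4866 to 3918 bases when the median over the transcripts of each gene was used, with Myo3a at 2259 bases because of its 2 incomplete transcripts. With complete transcripts only, start codons numbered 9 in place of 10, first bases 15 in place of 19 and in-frame exons 7 in place of 8. The stricter rule for cassette exons, added after the data were seen, also gave 7, since it leaves out the partly coding exon 2 of Myo15. That rule lowered the counts of Myo18a, Myh14 and Pcdh15 from 20, 9 and 51 to 8, 2 and 31. The number of microexons was 4 at a limit of 27 bases and 11 at 51 bases, against 5 at 30 bases. The M21 models changed none of the values compared. No paired analysis was possible because GFP and Ikzf2 are represented by 1 library each and annotation positions belong to neither. Leaving out a replicate was not possible for the same reason.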
